A study of Mus musculus with 8 samples.

Results

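Potassium channel genes were taken as the protein-coding genes of GENCODE release M21 (mouse genome GRCm38/mm10) whose symbols begin with Kcn. There are 94 of them among 21951 protein-coding genes, in 21 subfamilies from Kcna to Kcnv. Each was looked up in the peaks of H3K27ac, acetylation of lysine 27 of histone H3, a mark of active promoters and enhancers that was mapped by chromatin immunoprecipitation and sequencing (ChIP-seq) with a Millipore antibody. The cells were Oli-neu, an immortalised mouse line of the oligodendrocyte lineage that the labels assign to embryonic progenitors of the C57BL/6 strain. One state was proliferating cells, grown with bFGF and Pdgf-BB. The other was control differentiating cells, which the labels give as 1 day without growth factors and with 1 µM of the erb inhibitor PD174265. Each state is 1 library of 1 cell line, so a difference between the states has no replicate check, no test between them was run, and state and library cannot be told apart. The 6 ATAC-seq samples of the study (3 siCtrl and 3 siPadi2) were not analysed here.

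Potassium channels let potassium leave or enter cells down its gradient and so set the resting potential of neurons and glia. In the oligodendrocyte lineage, progenitors carry voltage-gated currents of the Kcna family, and maturing cells come to rely on the inward rectifier that Kcnj10 encodes, which also takes up the potassium that active axons release. The 2-pore channels of the Kcnk family carry the leak current. Auxiliary subunits (Kcnab, Kcne, Kcnip, Kcnmb) form no pore and alter the gating or the surface level of channels that do.

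The proliferating list holds 28924 peaks and the differentiating list 27965. Each peak has a fold enrichment and a −log10 q, which were ranked only within their own list, and without read counts the depth under any peak is unknown. Chromosomes 1, 10 and 15 hold 33.1% and 33.8% of the peaks of the proliferating and differentiating lists, and values without them are given where they bear on a result. Among lineage markers, Sox10, Olig1 and Olig2 had a promoter peak in both lists, and Nkx2-2, Cspg4, Pdgfra, Mbp and Cnp had peaks in the gene body alone, in 1 list or both. Among 12 markers of other cell types, a promoter peak was found at Slc1a3 (astrocytes) in proliferating cells and at Syt1 (neurons) in differentiating cells. Slc1a3 and Syt1 also had gene-body peaks in both lists. So did Aldh1l1 (astrocytes), Rbfox3 and Snap25 (neurons) and Cx3cr1 (microglia), which had no promoter peak. Gene-body peaks were thus not confined to the lineage markers.

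The promoter region of a gene spans 3000 bp before and 100 bp after its transcription start site (TSS), and a promoter peak shares at least 1 base with it. A gene-body peak overlaps the gene and touches no base of that region. RefSeq (GRCm38.p6) lists a promoter sequence for 69 of the 94 genes. For Kcnab2, Kcnmb4 and Kcnip3 the 300 bases from 250 before to 50 after the RefSeq start nearest to the GENCODE start lay wholly under a peak in both states, and for Kcnj10 none of them did. The RefSeq start lay 322 bp (Kcnab2) and 355 bp (Kcnmb4) downstream of the GENCODE start, and at it for Kcnip3 and Kcnj10. The Kcnmb4 bases therefore lie outside the promoter region defined above, as do most of the Kcnab2 bases. The 4 are shown 5′ to 3′ to put 3 RefSeq promoters under peaks beside that of the main glial channel, Kcnj10. Kcnj10 has no peak over these bases but has peaks that begin within 1000 bp downstream of the TSS. The 4 windows are not alike in their distance from the GENCODE start. Capitals mark the cores searched on both strands, which are GGGCGG (Sp), ACAAAG and ACAATG (SOX) and CAGCTG (E-box).
Kcnab2 (chr4:152477500-152477799, minus strand): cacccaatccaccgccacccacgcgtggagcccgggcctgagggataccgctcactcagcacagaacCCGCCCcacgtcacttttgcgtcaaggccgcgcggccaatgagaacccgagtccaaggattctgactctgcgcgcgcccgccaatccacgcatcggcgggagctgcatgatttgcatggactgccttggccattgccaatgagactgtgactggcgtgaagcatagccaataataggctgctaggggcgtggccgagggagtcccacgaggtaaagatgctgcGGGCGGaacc
Kcnmb4 (chr10:116473474-116473773, minus strand): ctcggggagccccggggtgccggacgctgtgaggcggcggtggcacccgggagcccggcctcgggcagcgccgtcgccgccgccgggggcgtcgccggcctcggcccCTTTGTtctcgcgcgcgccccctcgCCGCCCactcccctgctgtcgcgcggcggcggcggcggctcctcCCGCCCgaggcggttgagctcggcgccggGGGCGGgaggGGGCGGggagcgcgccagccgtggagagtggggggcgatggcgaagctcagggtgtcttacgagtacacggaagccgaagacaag
Kcnip3 (chr2:127522045-127522344, minus strand): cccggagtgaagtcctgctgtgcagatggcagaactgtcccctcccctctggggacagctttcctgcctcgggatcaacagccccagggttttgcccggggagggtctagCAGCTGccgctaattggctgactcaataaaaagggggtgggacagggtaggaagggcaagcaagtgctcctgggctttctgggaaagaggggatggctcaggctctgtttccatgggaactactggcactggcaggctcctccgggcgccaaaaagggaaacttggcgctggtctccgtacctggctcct
Kcnj10 (chr1:172340960-172341259, plus strand): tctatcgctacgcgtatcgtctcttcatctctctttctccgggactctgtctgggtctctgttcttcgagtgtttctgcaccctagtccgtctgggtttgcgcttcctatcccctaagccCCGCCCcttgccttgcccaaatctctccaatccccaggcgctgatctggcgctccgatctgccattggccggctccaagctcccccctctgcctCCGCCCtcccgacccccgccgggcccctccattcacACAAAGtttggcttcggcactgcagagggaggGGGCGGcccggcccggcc
The Kcnmb4 promoter is 79% G or C, with 48 CpG sites and 4 Sp cores, and the Kcnip3 promoter is 60.3% G or C with 8 CpG sites and no Sp core. Kcnab2 has 25 CpG sites and 2 Sp cores. The promoter of Kcnj10 has 21 CpG sites, 3 Sp cores and 1 SOX core. These 4 sequences were picked by hand and say nothing of other promoters.

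Fewer potassium channel genes than protein-coding genes in general had a promoter peak, in both states. In proliferating cells 13 of 94 had one, or 13.8% (95% exact interval 7.57 to 22.5%), against 23.7% of all protein-coding genes. In differentiating cells the number was 8, or 8.51% (3.75 to 16.1%), against 27.7%. A promoter peak in either list was found at 15 genes (15.96%, 9.22 to 24.95%), against 33.8% of all genes, and in both lists at 6 (6.38%), against 17.6%. The intervals cover counting error over genes only, not the variation between cultures. In the proliferating list alone there were 7 genes, or 7.45%, against 6.13%, and in the differentiating list alone 2, or 2.13%, against 10.1%. The 40 sodium and calcium channel genes lay between, with a promoter peak in either list at 11 of them (27.5%, 14.6 to 43.9%), and their interval overlaps that of the potassium channel genes.

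Gene bodies gave the opposite order where peaks that touch the promoter region were left out. A gene-body peak was present at 39 potassium channel genes in proliferating cells (41.5%, 31.4 to 52.1%), against 29.4% of all genes. It was present at 37 in differentiating cells (39.4%, 29.4 to 49.98%), against 28.2%. Either list had one at 48 (51.1%), against 38.8%, and both at 28 (29.8%), against 18.8%. When all peaks over the gene were counted, those of the promoter included, the order was not seen, with 43.6% of members against 41.9% of all genes in proliferating cells, 42.6% against 43.5% in differentiating cells and 52.1% against 52.5% in either list. No peak in promoter or gene body was found at 42 of 94 genes (44.7%), close to the 44.4% of all genes. A gene-body peak without a promoter peak was found at 37 genes (39.4%), against 21.8% of all genes.

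**Figure D1:**
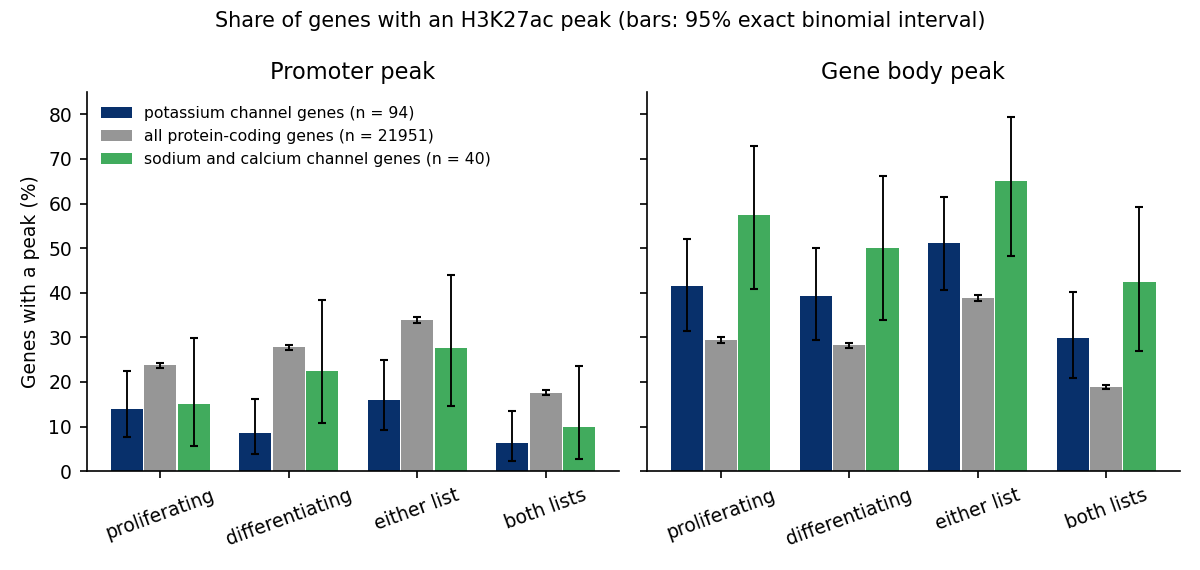
Share of genes with an H3K27ac peak in the promoter region (left) or gene body (right) for potassium channel genes, all protein-coding genes and sodium and calcium channel genes; bars are shares in percent and lines are 95% exact binomial intervals. Potassium channel genes sit below all genes for promoters (15.96% against 33.8% in either list) and above them for gene bodies without promoter peaks (51.1% against 38.8%), where the shares are 52.1% and 52.5% if promoter peaks are counted too.

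Gene length goes with the second pattern. The median potassium channel gene is 30.8 kb long, against 17.4 kb for all genes. Of the 18 members over 200 kb, 18 had a gene-body peak in either list, against 89.0% of all genes of that length, and of the 23 under 10 kb, 2 did (8.70%), against 13.4%. At 10 to 50 kb the shares were 45.7% and 40.6%, and at 50 to 200 kb 66.7% and 71.5%. Per megabase of gene, the members held 11.3 and 10.3 gene-body peaks in the proliferating and differentiating lists, against 12.6 and 12.3 for all genes. The members thus had no more gene-body peaks for their length than other genes. The promoter share was below that of all genes in each length band, at 8.70% against 25.6% under 10 kb, 8.57% against 37.4% at 10 to 50 kb, 33.3% against 41.4% at 50 to 200 kb and 22.2% against 35.2% above that. Only the interval at 10 to 50 kb (1.80 to 23.1%) leaves out the share of all genes of that length.

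**Figure D2:**
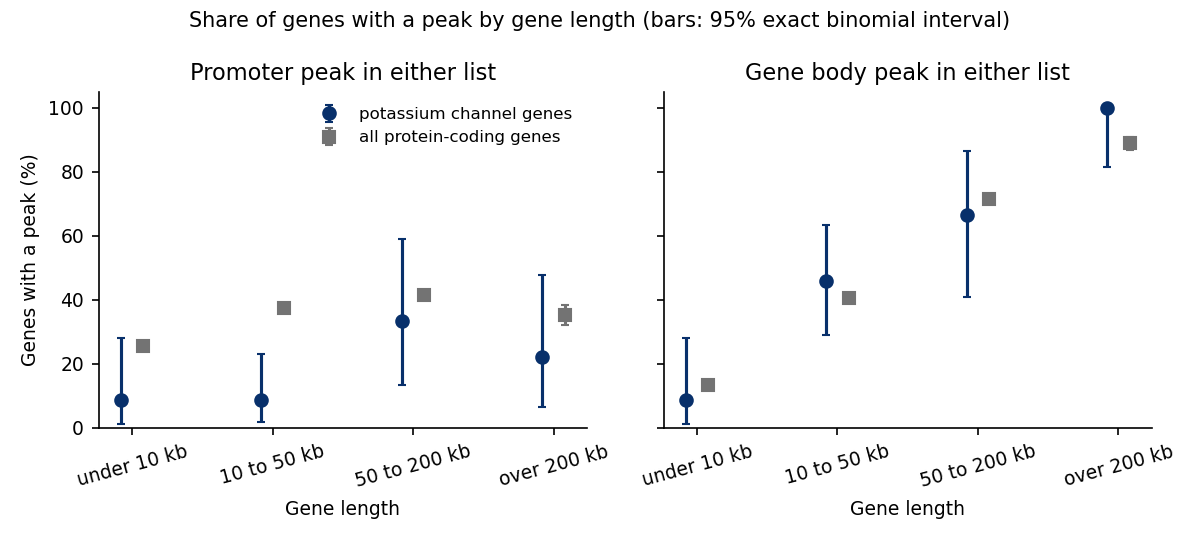
Share of genes (percent) with a promoter peak (left) or gene-body peak (right) in either list, by gene length in 4 bands; points are shares and lines 95% exact binomial intervals. The gene-body share rises from 8.70% to 100% of potassium channel genes with length and stays close to that of all genes, whereas the promoter share of potassium channel genes is the lower one in every band.

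Chromosomes 1, 10 and 15 carry 17 of the 94 genes, and 5 of the 17 (29.4%) had one at the promoter in at least 1 list, against 48.5% of all genes there. On the other chromosomes the numbers were 10 of 77 (13.0%), against 31.5%. The promoter share was therefore below that of all genes in both sets of chromosomes, although 5 of 17 is too small a count to set the first apart. Of the gene-body peaks of the members, 55 of 117 in the proliferating list and 63 of 107 in the differentiating list lay on these 3 chromosomes, or 47.0% and 58.9%, against 31.97% and 33.5% for all genes. The members also hold more of their sequence there, 2.58 of 10.4 Mb against 174.7 of 1074 Mb for all genes. Per megabase on these chromosomes the members held 21.3 and 24.4 gene-body peaks, against 24.8 and 25.3 for all genes. Without these chromosomes the members held 7.93 and 5.63 gene-body peaks per megabase, against 10.25 and 9.76 for all genes, so that the differentiating value of 10.3 above rests on them. A gene-body peak in either list was found at 46.8% of the members on the other chromosomes, against 35.1% of all genes there.

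A promoter rich in CpG sites, defined here as at least 50% G or C and an observed-to-expected CpG ratio of at least 0.6 in the 300 bases around the TSS, was found at 32 potassium channel genes (34.0%), against 41.3% of all genes. Among those 32, a promoter peak in at least 1 list stood at 7 (21.9%, 9.28 to 40.0%), against 58.2% of all CpG-rich promoters. Among the other 62, 8 did (12.9%, 5.74 to 23.9%), against 16.7%. The distance from all genes thus lay mostly at CpG-rich promoters. In the whole promoter region the Sp core was found at 74.5% of members and 61.2% of all genes, the E-box at 87.2% and 72.8%, a SOX core at 97.9% and 98.6%, and the cyclic AMP element TGACGTCA at 3.19% and 4.09%. A match to RE1, the binding element of the neuronal repressor REST (up to 2 mismatches), was found at Kcnh7 and Kcnk12, 2.13% of members against 1.43% of all genes. A match is a description of the letters and not a bound site.

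Promoter peaks were counted by role, against 33.8% of all genes with one in either list. The voltage-gated pore-forming genes (Kcna, Kcnb, Kcnc, Kcnd, Kcnh, Kcnq) had one in either list at 7 of 30 (23.3%, 9.93 to 42.3%). The auxiliary subunits, with Kcnrg counted among them, had one at 4 of 17 (23.5%, 6.81 to 49.9%). The calcium- or sodium-activated channels (Kcnma, Kcnn, Kcnt), with their relative Kcnu counted among them, had one at 2 of 8 (25%, 3.19 to 65.1%). The inward rectifiers (Kcnj) had one at 2 of 15 (13.3%, 1.66 to 40.5%). None was found at the 10 silent modifier subunits of voltage-gated channels (Kcnf, Kcng, Kcns, Kcnv) or at the 14 2-pore channels. A count of 0 of 14 allows a share of up to 21.4% by 3 counts. The exact intervals reach 23.2% for the 2-pore channels and 30.8% for the modifiers, below the 33.8% of all genes. The intervals of the 6 roles overlap, so the roles were not told apart. Gene-body peaks in either list were found at 19 of 30, 9 of 17, 4 of 8, 7 of 15, 2 of 10 and 7 of 14 genes, which takes the roles in the order voltage-gated pore, auxiliary, calcium- or sodium-activated, inward rectifier, modifier and 2-pore, against 38.8% of all genes. Of these shares only that of the voltage-gated pore genes (63.3%, 43.9 to 80.1%) has an interval that leaves out the share of all genes. These shares were not matched for gene length. Several voltage-gated pore genes are over 200 kb, such as Kcnq5 (564 kb) and Kcnd2 (514 kb). Of all genes of that length 89.0% had a gene-body peak in either list, and the part of length in the role shares was not tested.

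**Figure D3:**
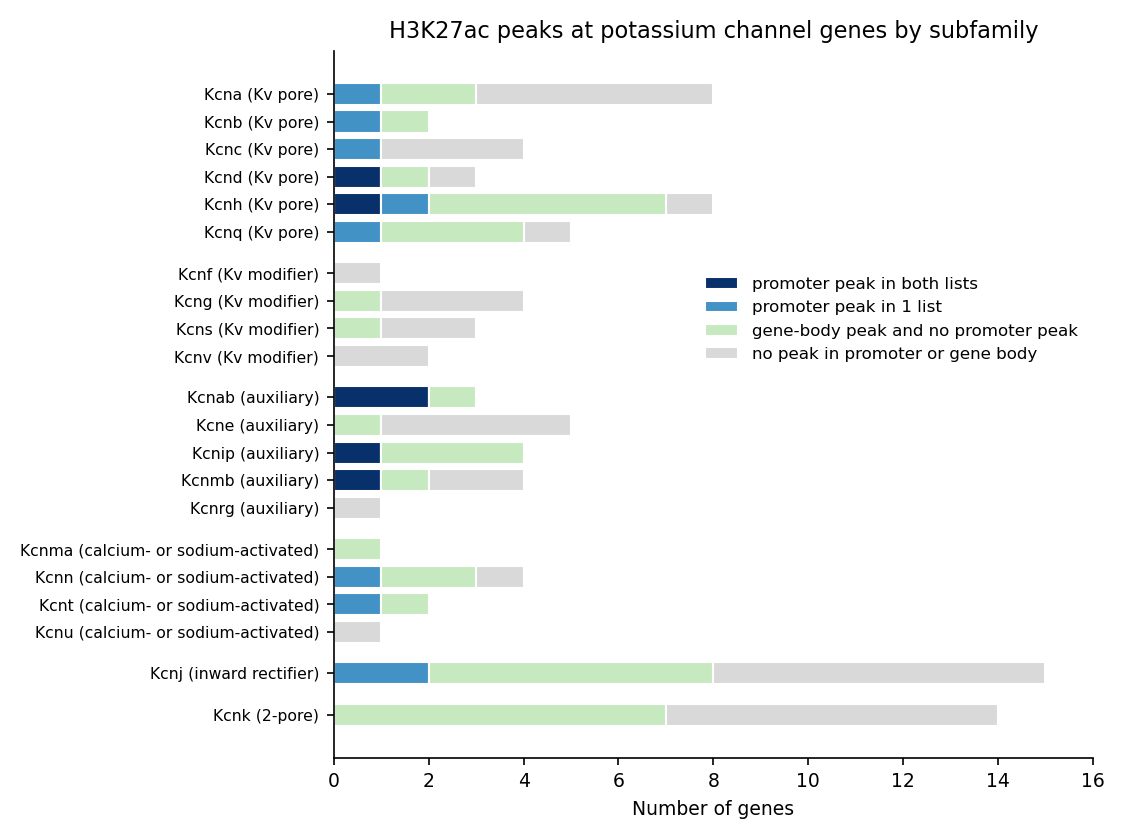
Number of potassium channel genes in each of the 21 subfamilies (rows, with their role) with a promoter peak in both lists, a promoter peak in 1 list, a gene-body peak without a promoter peak, or neither. Of the 6 genes with a promoter peak in both lists 4 are auxiliary subunits, and the 14 Kcnk genes have none. Among these subunits, Kcnab3 has a differentiating peak with a q above 0.05.

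The 6 genes with a promoter peak in both lists were the auxiliary subunits Kcnab2, Kcnab3, Kcnip3 and Kcnmb4 and the pore-forming genes Kcnd3 and Kcnh2. Kcnab2 (ENSMUSG00000028931.11, chromosome 4, TSS at 152477871 on the minus strand) encodes a beta subunit of Kcna channels that is needed for their transport to the axon. Its peaks over the TSS had a fold enrichment of 4.33 and a −log10 q of 4.64 in proliferating cells and 3.50 and 2.68 in differentiating cells, at percentiles 94.7 and 75.03 of their lists, and lie inside the overlapping gene Nphp4. Kcnmb4 (ENSMUSG00000054934.10, chromosome 10, TSS at 116473878, minus strand), a beta subunit of the large-conductance calcium-activated channel, had −log10 q 4.01 and 1.68 over its TSS, at percentiles 91.9 and 37.6. Kcnip3 (ENSMUSG00000079056.12, chromosome 2, TSS at 127522094, minus strand), a calcium-binding partner of Kcnd channels that is also known as the transcriptional repressor DREAM, had 2.70 and 2.98, at percentiles 77.2 and 80.3. For Kcnab2 and Kcnmb4 the peak stood higher in the proliferating list, and for Kcnip3 the ranks in the lists were near each other.

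Kcnd3 (ENSMUSG00000040896.16, chromosome 3, TSS at 105452330, plus strand), a pore-forming gene of the transient A-type current, had −log10 q 2.18 and 2.82 over its TSS, at percentiles 61.7 and 77.7. Kcnh2 (ENSMUSG00000038319.14, chromosome 5, TSS at 24351604, minus strand), the channel of the rapid delayed rectifier of the heart, had 4.01 and 3.07, at percentiles 91.9 and 81.7, with a proliferating peak that ends 313 bp upstream of the TSS and a differentiating peak that covers it. Kcnab3 (ENSMUSG00000018470.8, chromosome 11, TSS at 69326258, plus strand) stands apart, because its peaks end 2446 and 1881 bp upstream of its TSS, lie in the promoter regions of Cntrob and Trappc1 as well, and reach only percentiles 33.7 and 2.98. A peak there cannot be assigned to one of the 3 genes from its position. The differentiating Kcnab3 peak (−log10 q 1.22) is lost at a q of at most 0.05, the cutoff given in the paper's methods. With that cutoff, promoter peaks in both lists stood at 5 of 94 genes (5.32%), against 17.3% of all genes.

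In the proliferating list alone, promoter peaks lay at Kcnt1, Kcnc2, Kcnq5, Kcnj3 and Kcnb2, which had −log10 q 4.41, 3.02, 2.96, 2.89 and 2.57. Kcnh5 (2.56) and Kcnj9 (1.31) complete the list and are named after their values were seen. Kcnt1 encodes a sodium-activated channel, Kcnq5 a channel of the M-current, and Kcnj3 and Kcnj9 subunits of the inward rectifiers opened by G proteins. The peaks of Kcnj3, Kcnq5, Kcnh5 and Kcnj9 cover the TSS, whereas those of Kcnt1, Kcnc2 and Kcnb2 are 263 to 289 bp wide and lie 585 to 2877 bp upstream of it. The differentiating list alone had promoter peaks at Kcna2 (−log10 q 2.18, over the TSS) and Kcnn1 (1.43, upstream).

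A peak in 1 list alone was not always a region without a peak in the other. Kcnq5 had a differentiating peak that overlaps the proliferating one and begins 185 bp downstream of the TSS, just outside the promoter region, at −log10 q 2.04. Kcnh5 had one that begins 164 bp downstream, at 2.65, and Kcna2 a proliferating peak that begins 786 bp downstream, at 3.73. With these 3, 8 of 13 proliferating promoter peaks (61.5%) and 7 of 8 differentiating ones (87.5%) overlapped a peak of the other list, against 75.6% and 67.2% of the promoter peaks of all genes. Without chromosomes 1, 10 and 15 the genes of the proliferating list alone were 3 in place of 7, and those of the differentiating list alone stayed at 2.

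**Figure D4:**
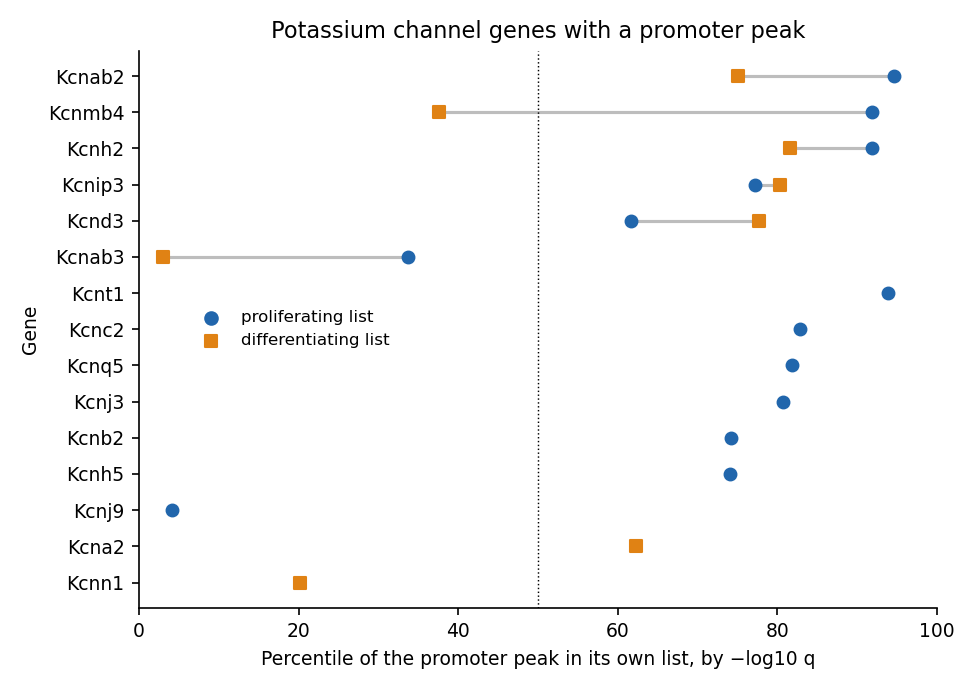
Percentile of each promoter peak within its own list by −log10 q (horizontal axis) for the 15 potassium channel genes with one (rows); circles are the proliferating list, squares the differentiating list, grey lines join a gene's peaks and the dotted line is the median of a list. Kcnab2 reaches 94.7 and Kcnt1 93.9 in the proliferating list, and the highest differentiating peak, at Kcnh2, reaches 81.7.

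No member had a promoter peak with a −log10 q of 5 or more, against 3.27% and 4.25% of all genes in the proliferating and differentiating lists. A count of 0 of 94 allows a share of up to 3.19% by 3 counts and up to 3.85% by the exact interval, which includes the first of these shares. Of the promoter peaks of all genes, 13.5% and 15.1% reached 5. With only 13 and 8 promoter peaks, the members cannot be set apart from all genes in this. The highest values were 4.64 (Kcnab2) and 3.07 (Kcnh2). Among genes with a promoter peak, the median of the strongest one was 2.89 and 2.43 for the members, against 2.72 and 2.78 for all genes. The nearest peak lay at a median of 25.8 and 24.3 kb from the TSS of the members, against 17.4 and 15.7 kb for all genes, and covered the TSS of 8 and 6 of them (8.51% and 6.38%, against 15.95% and 20.4%).

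Kcnj10, on chromosome 1, had no promoter peak in either list but several within the gene. The gene (ENSMUSG00000044708.5, TSS at 172341210 on the plus strand) is 32.9 kb long and held 3 peaks in proliferating cells, which begin 627, 8022 and 15686 bp downstream of the TSS, and 4 in differentiating cells, which begin 140, 8128, 16861 and 22241 bp downstream. The first 3 of each list overlap each other, and the first differentiating peak begins just outside the promoter region. If the promoter is taken as 1000 bp to either side of the start, Kcnj10 counts as having a promoter peak. At the first region −log10 q was 2.29 in proliferating and 4.17 in differentiating cells, at percentiles 66.3 and 91.0. At the second it was 2.37 and 5.52 (68.9 and 95.6), and at the third 2.65 and 2.30 (76.2 and 66.1). The fold enrichments at these regions were 2.70, 2.68 and 3.21 in the proliferating list and 2.79, 3.08 and 2.71 in the differentiating list. The order of the 3 regions by −log10 q thus differed between the lists, with the third highest in proliferating and lowest in differentiating cells. The fourth peak, in differentiating cells alone, stood at 1.79. Only Kcnj10 and Kcnq5, a gene of 564 kb, had 3 gene-body regions with a peak in both lists (2.13% of members, against 0.784% of all genes). Its neighbour Kcnj9 had the weak proliferating promoter peak given above.

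The second region of Kcnj10 lies in an intron, and its peaks share 1564 bp. The middle 300 bases are shown because this region has the highest −log10 q of the gene, with the same cores in capitals (3 SOX cores and 1 Sp core).
Kcnj10 intron (chr1:172349970-172350269, plus strand): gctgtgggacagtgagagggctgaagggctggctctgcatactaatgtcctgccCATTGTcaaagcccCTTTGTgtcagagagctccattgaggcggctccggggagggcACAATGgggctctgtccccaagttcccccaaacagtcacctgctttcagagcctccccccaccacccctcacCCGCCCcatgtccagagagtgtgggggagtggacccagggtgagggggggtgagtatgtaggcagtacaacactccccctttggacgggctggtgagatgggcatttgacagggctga
Of these bases 7.33% are marked as repeats in the RefSeq genome sequence.

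Among the other channels of glia, Kcnj16, which forms channels together with Kcnj10, had 1 intronic peak in each list, 53.7 kb and 41.4 kb into the gene. Kcnk2, a leak channel opened by stretch and lipids, had 7 and 9 gene-body peaks in its 194 kb on chromosome 1. In 2 regions these peaks overlapped between the lists. The region farther from the TSS lay over the start of an inner transcript 187 kb into the gene, at −log10 q 2.56 and 3.93. Kcnk10 had 3 and 2 peaks, of which 1 in each list lies over the start of a shorter transcript 3598 bp downstream, at −log10 q 1.69 and 1.25. Kcnk13 had 4 peaks in proliferating cells, the first of which begins 247 bp downstream of the TSS, and none in differentiating cells. Kcnk1, Kcnk5 and Kcnk6, which encode other leak channels, had no peak in promoter or gene body in either list.

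The Kcna genes, which carry the delayed rectifier of progenitors, had a promoter peak at 1 of 8 genes and a gene-body peak in either list at 3 of 8 (Kcna1, Kcna2 and Kcna6), near the 38.8% of all genes. Kcna1 is named after its values were seen. Kcna3 and Kcna5 had none, and their nearest peaks lay 64.8 kb and 25.2 kb or more from the TSS. Kcna6 had 1 peak in differentiating cells, 163 to 911 bp downstream of the TSS over the start of a transcript, at −log10 q 3.54. Kcnd2, another gene of the A-type current, had 1 intronic peak in each list, and these did not overlap.

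The members held 117 proliferating and 107 differentiating gene-body peaks, of which 106 and 93 lay in introns, 7 and 10 touched a coding exon and 4 and 4 a noncoding exon. Their median −log10 q was 1.81 and 1.72, against 1.89 and 1.82 for the gene-body peaks of all genes. Of them 21 (17.9%) and 22 (20.6%) overlapped a peak of the other list, against 25.7% and 25.2% for all genes. In the proliferating list 24 of the 117 (20.5%) were 263 bp wide, the narrowest width of that list, against 23.7% of the gene-body peaks of all genes. In the differentiating list 18 of the 107 (16.8%) had the narrowest width there, 279 bp, against 19.0%. In strength and in the share of narrowest peaks the gene-body peaks of the members were thus close to those of all genes. Their median width was larger, at 796 and 818 bp in the proliferating and differentiating lists, against 629 and 730 bp for all genes. The exact intervals of the shares overlapping the other list (11.5 to 26.1% and 13.4 to 29.5%) include the shares of all genes.

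The 5 genes with the most gene-body peaks were Kcnq3 (18 and 12), Kcnq5 (9 and 15), Kcnk2 (7 and 9), Kcnh1 (9 and 6) and Kcnb2 (4 and 5). Kcnq3 and Kcnq5 encode channels of the M-current, and Kcnh1 and Kcnb2 voltage-gated channels of neurons. All 5 lie on chromosomes 1 or 15 and are 194 to 564 kb long. All genes of chromosome 1 together held 22.1 gene-body peaks per megabase in each list and those of chromosome 15 held 29.4 and 30.9. Per megabase the 5 genes lay on both sides of these values, with 59.9 and 40.0 for Kcnq3, 36.0 and 46.3 for Kcnk2, 28.2 and 18.8 for Kcnh1, 15.97 and 26.6 for Kcnq5 and 9.16 and 11.5 for Kcnb2. The part of the chromosome in these counts was not tested.

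**Figure D5:**
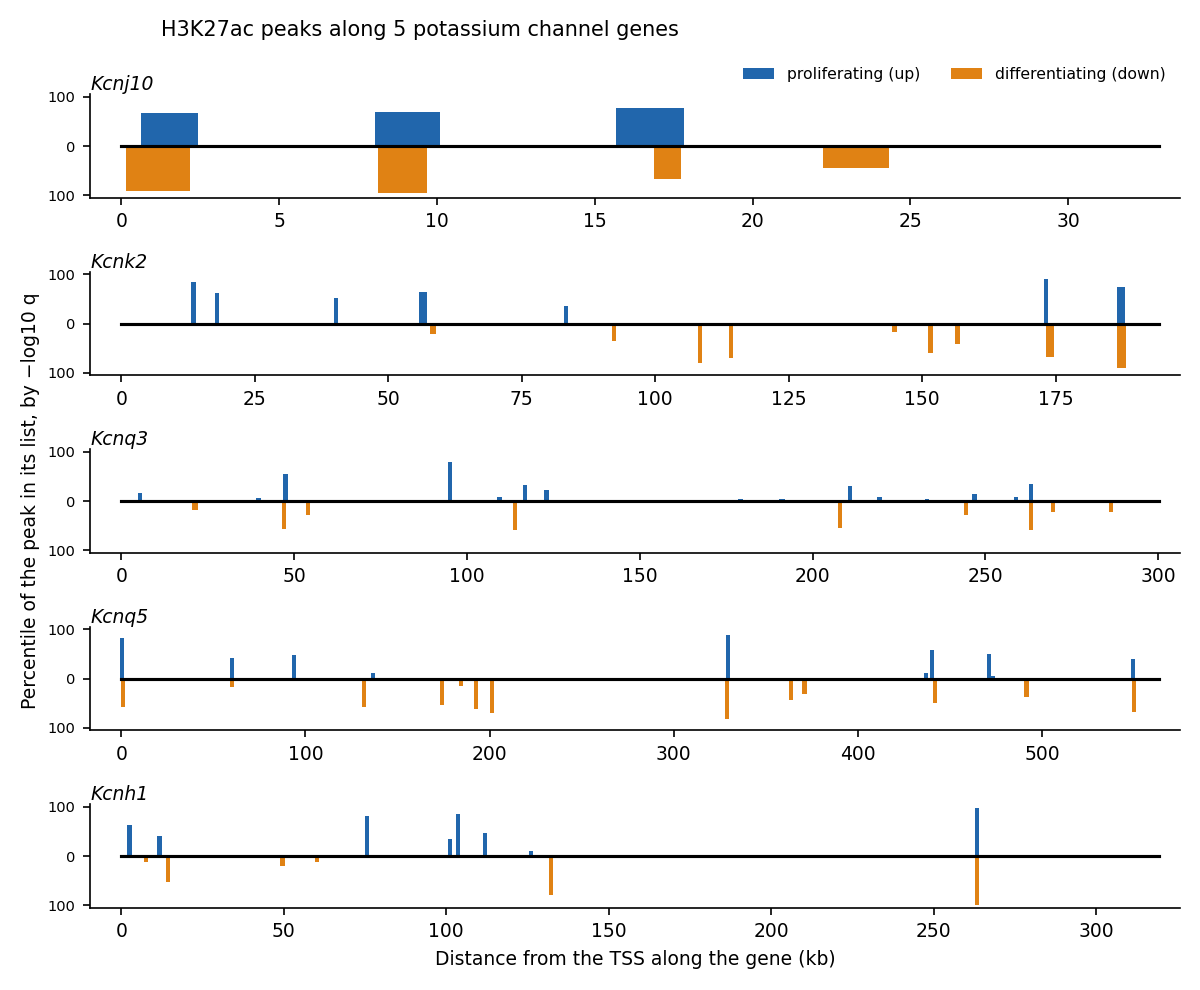
H3K27ac peaks along Kcnj10, Kcnk2, Kcnq3, Kcnq5 and Kcnh1, by distance from the TSS in kb (horizontal axis); bar height is the percentile of a peak within its list by −log10 q, upward for proliferating and downward for differentiating cells, and narrow peaks are drawn wider than they are. Kcnj10 has 3 regions with a bar in both directions within 18 kb, whereas most bars of the other 4 genes have none opposite, and Kcnh1 has its tallest pair 263 kb from the TSS.

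The strongest gene-body peaks of all members lay in an intron of Kcnh1, 263 kb from its TSS. The proliferating peak had a fold enrichment of 5.11 and a −log10 q of 5.92, and the differentiating one 6.15 and 11.25, at percentiles 97.2 and 99.2. In the middle 300 bases of the stretch they share, 43.7% are marked as repeats in the RefSeq genome sequence. Over the whole peaks the share is lower, at 33.0% (proliferating) and 30.1% (differentiating). The part of the repeats in these values was not tested.

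Another shared gene-body region also holds repeats. The strongest pair of Kcnq5 peaks, 329 kb into the gene with −log10 q 3.59 and 3.08, shares 90 bases, shown because a stretch of 42 bases stands in them 2 times, 48 bases apart. No core searched occurs in them, so there are no capitals.
Kcnq5 intron (chr1:21632738-21632827, minus strand): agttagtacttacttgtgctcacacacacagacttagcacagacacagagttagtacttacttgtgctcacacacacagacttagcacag
Without the Kcnh1 region the highest gene-body values were 4.00 (Kcnq1, which encodes the channel of the slow cardiac delayed rectifier) in proliferating and 5.52 (Kcnj10) in differentiating cells. Next in rank were Kcna2 (3.73), Kcnk2 (3.62) and Kcnq5 (3.59) in the proliferating list, and the first Kcnj10 region (4.17), Kcnk2 (3.93) and Kcnj6, a subunit of G-protein-opened rectifiers (3.89), in the differentiating list. Peaks at least 50% of whose bases are marked as repeats were 4 of 117 (3.42%) and 9 of 107 (8.41%) of the gene-body peaks of the members, against 7.61% and 7.32% for all genes, and 0 of the 13 and 8 promoter peaks.

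The start of a gene as a whole is only one of its starts. When the TSS of every annotated transcript was counted, a promoter peak in at least 1 list was found at 25 of 94 genes (26.6%), against 42.1% of all genes. The 10 genes gained were Kcna6, Kcnh3, Kcnip2, Kcnj15, Kcnj16, Kcnk2, Kcnk3, Kcnk10, Kcnn2 and Kcnq3, of which 3 belong to the Kcnk family. Kcnk2 gained most, with 2 proliferating and 3 differentiating peaks at inner starts, and its highest value was the −log10 q of 3.93 given above. The share stayed below that of all genes under this definition too.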

How the data were processed

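The authors aligned the ChIP-seq reads to GRCm38/mm10 and deposited 1 list of broad peaks per library, with blacklisted regions taken out. The submitters' processing notes name Bowtie2 2.1.0, MACS2 2.0.10, SAMtools and bedtools. An input library is not given in the sources used here. Each deposited peak has coordinates and a text cell of 3 values with no header, read in the peak caller's order as fold enrichment, which is a ratio, then −log10 p, then −log10 q. Protein-coding genes came from GENCODE M21, with the 5′ end of a gene as its TSS. Overlaps and exact (Clopper-Pearson) intervals were computed with scipy 1.17.1, pandas 2.3.3 and numpy 2.4.6 under Python 3.11.15, sequence was read with pyfaidx 0.9.0.4, and plots were made with matplotlib 3.10.9. Percentiles are mid-ranks within a list. A zero count was given the limit of 3 counts. The look-up was tested on simulated data. The study's methods and the labels differ on how long Oli-neu cells were differentiated, and the labels are followed.

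Members and lists were chosen with earlier results of these data known. Named were the genes with a promoter peak in both lists, the 5 strongest in each list alone, the 5 strongest gene-body peaks of each list, the 5 genes with most gene-body peaks, and a list of channels of glia. Other genes are given in counts, and values of some genes and 1 sequence are not reported here.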

Additional observations from a re-analysis of the deposited data

How the results depend on the processing

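No paired analysis was possible because each state is 1 library and no result comes from a test. Each share of potassium channel genes was recomputed with stricter peaks, equal numbers of peaks, other overlaps and other promoter definitions. Of 94 recomputed main values, 71 stayed within the interval of the reported share or within 1.5 times the reported count, and 23 did not. With −log10 q of at least 5 the promoter shares were 0 in each list, either and both, the counts in 1 list alone were 0 and 0, and the gene-body shares were 1.06% (proliferating), 2.13% (differentiating), 2.13% (either) and 1.06% (both), against 1.79%, 2.32%, 3.37% and 0.743% of all genes. With fold enrichment at or above the median of the list, the promoter share was 2.13% in differentiating cells and 2.13% in both, against 20.4% and 10.9% of all genes, with 0 genes in the differentiating list alone. The gene-body shares were then 26.6%, 24.5%, 38.3% and 12.8%, against 19.5%, 18.4%, 27.9% and 9.94% of all genes. With at least 0.5 of the peak inside the region, the promoter share was 6.38% in proliferating cells and 2.13% in both, against 13.9% and 7.65%, with 4 genes in the proliferating list alone. The TSS of every transcript gave 26.6% in either list, against 42.1%, and 4 genes in the differentiating list alone. Without chromosomes 1, 10 and 15, an alternative chosen after seeing the data, 3 genes were in the proliferating list alone. The cause of these changes beyond the smaller number of peaks or genes was not tested. The promoter share in either list was below that of all genes in every alternative. When peaks of the promoter were also counted, a peak in the gene was found in either list at 52.1% of members and 52.5% of all genes, so the higher gene-body share was not seen with that count.

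One library per state, an unknown depth behind each peak and lists cut at a q of about 0.1 limit all of these values. A gene without a peak was not shown to lack the mark.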

Other observations

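Other genes that move potassium had a promoter peak more often than the channels, without a test of the difference. Of 18 such genes (sodium pumps, cation-chloride cotransporters and the Hcn channels), 8 had a promoter peak in either list (44.4%, 95% exact interval 21.5 to 69.2%), against 33.8% of all protein-coding genes and 15.96% of the potassium channel genes, with overlapping intervals. Hcn2, a channel opened by hyperpolarisation, and Slc12a2, the sodium-potassium-chloride cotransporter, had a promoter peak in both lists, at 4.02 and 2.88 for Hcn2 and 3.11 and 1.45 for Slc12a2. Slc12a5, a potassium-chloride cotransporter of neurons, had none.

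Of 9 partner genes of potassium channels, Lrrc55 had a promoter peak in proliferating cells (−log10 q 1.89) and none had one in differentiating cells. The long genes Dpp6, Dpp10 and Cntnap2, whose products bind Kcnd or Kcna channels, held 10 and 4, 5 and 8, and 7 and 7 gene-body peaks in the proliferating and differentiating lists.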
